A study of Mus musculus and Acomys cahirinus with 84 samples.

Results

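The comparison set the mRNA response to 10 Gy of gamma irradiation in skin fibroblasts of the African spiny mouse, Acomys cahirinus, against the response in fibroblasts of house mice labelled C56BL6, both read 12 d after treatment. It used 16 of the 84 samples of the series: 4 irradiated (10 Gy) and 4 plain untreated (0 Gy) libraries from each population. All were primary skin fibroblasts sequenced as stranded libraries of polyA RNA, no genetic change or drug was named for any group, and all 12 d libraries carried the same batch label. Each replicate number stood for 1 animal code within a population, so the untreated and irradiated libraries of a number formed a pair, and the 4 pairs of A. cahirinus had different animals from the 4 pairs of C56BL6. Age and sex were not given in the labels used here, and 4 animals stood for each population.

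The quantity reported is a difference of changes: the log2 change from untreated to 10 Gy in A. cahirinus minus the same change in C56BL6. A positive difference means that a gene rose more, or fell less, in A. cahirinus. Levels are counts divided by library size and scaled as CPM, and because the reads of the populations were counted against different genomes and gene models, levels were not compared between populations. A gene was called when its adjusted p in edgeR's quasi-likelihood test was under 0.05.

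Ionizing radiation breaks DNA and activates p53, which induces the cyclin-dependent kinase inhibitor Cdkn1a and halts the cell cycle. Fibroblasts that keep unrepaired damage can become senescent: they stop dividing, lower nuclear lamin B1, and secrete cytokines and matrix-degrading enzymes. Senescent cells of mice and humans often also express interferon-stimulated genes, and fibroblasts are the main source of skin collagen. Spiny mice are studied because their skin heals wounds with little scarring.

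The 16 libraries held 26.65 to 41.83 M counts, and 13871 of the 18109 gene symbols found once in each count table passed the expression filter. The fibroblast markers matched the label: all 9 had reads in every library, and their summed level was 26500 to 32300 CPM in untreated and 20000 to 31700 CPM in irradiated A. cahirinus, against 20800 to 25000 and 11600 to 12500 CPM in C56BL6. Skeletal muscle markers were also present in A. cahirinus: all 6 had reads in every library, and they summed to 3570, 2000, 3570 and 3130 CPM in untreated animals 1 to 4 and to 5400, 2100, 4490 and 4690 CPM after 10 Gy. In C56BL6 they summed to 5 to 7.46 CPM untreated, with 4 or 5 of the 6 at 0 counts, and to 7.81 to 26.5 CPM after 10 Gy, with 2 at 0 counts. Keratinocyte markers summed to 966 CPM in the untreated and 258 CPM in the irradiated library of C56BL6 animal 1, against 1.51 to 1.93 and 3.77 to 4.65 CPM in the other C56BL6 animals. A. cahirinus animal 2 and C56BL6 animal 1 also stood apart on the first principal component. The part of these markers in the results was not tested, and in bulk RNA fewer cells of a type and less RNA per cell cannot be told apart. With those 2 animals left out, 3651 genes were called in place of the 3514 given next, and 2953 were shared.

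The response differed between the populations for 3514 genes (25.3% of those tested), 1768 with a positive difference (12.7%) and 1746 with a negative one (12.6%). Without the pairing of libraries by animal, 828 were called. The difference was at least 2-fold for 594 of the positive and 736 of the negative ones. Of the genes tested, 10712 had at least 1 CPM in at least 4 of 8 libraries of each population. Among these, 1581 differences were positive and 1318 negative (27.1% called). Totals over all tested genes also hold genes short of that level in at least 1 population. Within populations, 3347 genes changed in A. cahirinus (24.1%), 1713 upward and 1634 downward, and 6133 changed in C56BL6 (44.2%), 3155 upward and 2978 downward. The count in A. cahirinus fell to 1608 without its animal 1, to 1853 without animal 3 and to 2224 without animal 2.

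Most called differences lay in genes that passed the threshold in C56BL6 and not in A. cahirinus. Of the 1768 positive differences, 1012 (57.2%) fell in C56BL6 with no called change in A. cahirinus, 337 (19.1%) rose in A. cahirinus with no called change in C56BL6, 224 (12.7%) rose in A. cahirinus and fell in C56BL6, and 91 fell in both. Of the 1746 negative differences, 1091 (62.5%) rose in C56BL6 with no called change in A. cahirinus, 274 (15.7%) fell in A. cahirinus alone by this threshold, 177 (10.1%) fell in A. cahirinus and rose in C56BL6, and 104 rose in both. Over all tested genes the median difference was -0.02, the median change was 0 in A. cahirinus and 0.02 in C56BL6, values that the scaling within each table holds near 0. The changes of the 4 animals of one population all lay on one side of those of the other for 4137 genes (29.8%), with A. cahirinus above in 2014 and below in 2123.

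**Figure D1:**
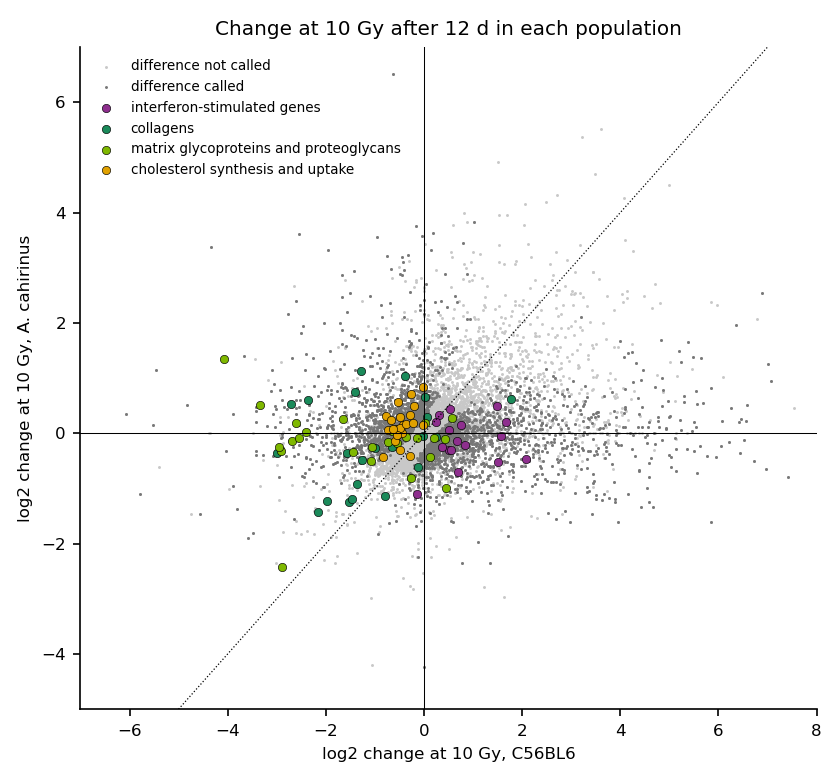
Each point is 1 of the 13871 genes tested, as far as the axes reach, with its log2 change at 10 Gy in C56BL6 on the x axis and in A. cahirinus on the y axis; the dotted line marks equal change, dark grey marks called differences and colours mark members of 4 gene lists at 1 CPM or more in 4 of 8 libraries of each population. Interferon-stimulated genes lie mostly right of the zero line and below the dotted line, while collagens, matrix glycoproteins and cholesterol genes lie mostly left of and above it.

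**Figure D2:**
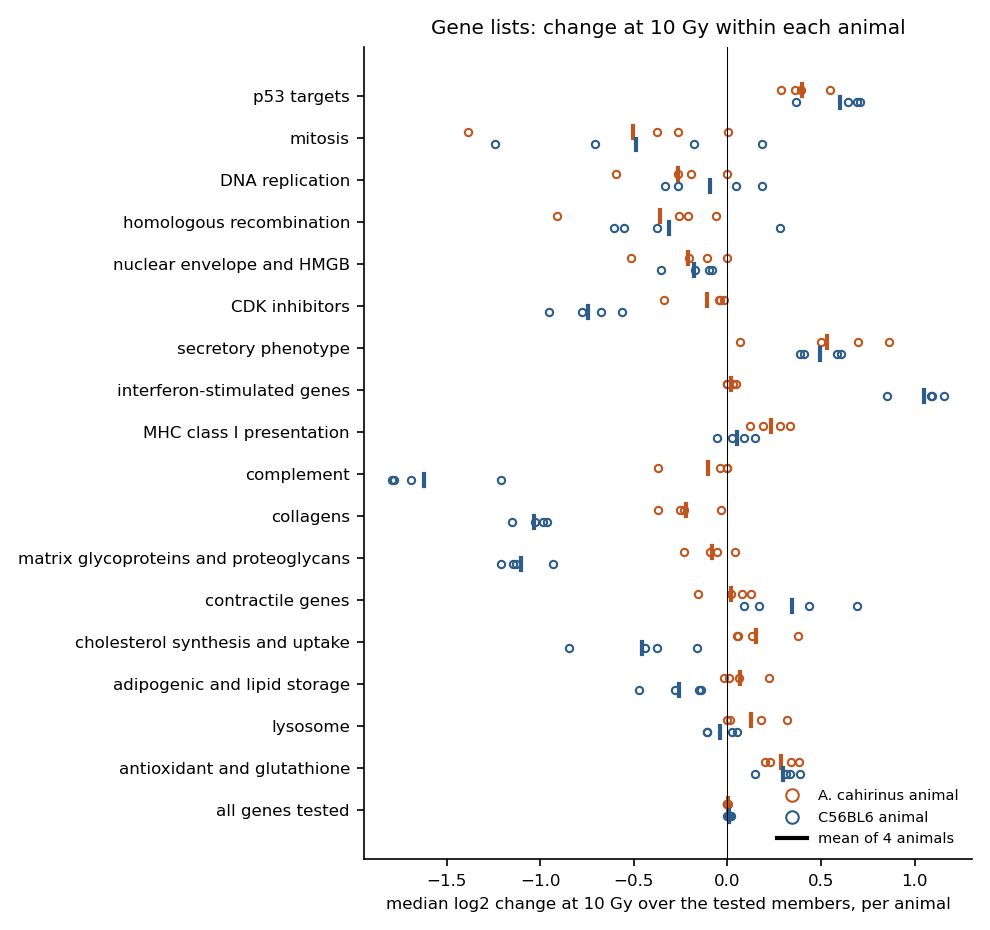
For 17 gene lists, circles give the median log2 change at 10 Gy over the tested members within each animal (A. cahirinus orange, C56BL6 blue) and bars the mean of 4 animals. The 4 circles of each population keep apart for the interferon-stimulated genes, where C56BL6 animals lie between 0.85 and 1.16 and A. cahirinus animals between 0.00 and 0.05, and for matrix glycoproteins, where they lie between -1.21 and -0.93 and between -0.23 and 0.04. Of the 30 interferon members, 18 had at least 1 CPM in at least 4 of 8 libraries of each population. A member with 0 counts in a pair enters as a change of 0, which draws the A. cahirinus medians toward 0.

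The positive differences described next were the 10 largest among genes whose mean reached 5 CPM in at least 1 group of each population and whose animals did not overlap between populations. All of them but Lgr6 fell in C56BL6. Car3, which encodes carbonic anhydrase 3, an abundant enzyme of muscle and fat (GRCm39 chromosome 3, 14928572 to 14937583), stood at 2218, 1713, 2492 and 2334 CPM in untreated A. cahirinus animals 1 to 4 and at 5984, 2805, 6376 and 4833 CPM after 10 Gy. In C56BL6 it fell from 2.38, 8.70, 20.8 and 8.45 CPM to 0.0722, 0.0632, 0.608 and 0.181 CPM, or 2, 2, 19 and 6 reads. Every A. cahirinus animal was higher after irradiation and every C56BL6 animal lower, giving a difference of 6.6 ± 0.29 (SE; adjusted p = 7.01e-07, edgeR quasi-likelihood test).

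Markers of muscle and fat did not follow Car3 throughout. The skeletal muscle sum rose least in A. cahirinus animal 2, from 2000 to 2100 CPM, and the same animal had the lowest irradiated Car3 level. In C56BL6, where Car3 fell, that sum was higher after 10 Gy in all 4 animals. Summed adipocyte markers were 12.1 to 20.2 CPM untreated and 11.7 to 21.7 CPM irradiated in A. cahirinus, lower in 3 of 4 animals, and fell in range from 4.86 to 21.6 CPM to 0.433 to 2.08 CPM in C56BL6. Their part in the difference was not tested.

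Adamts15, which encodes a secreted protease that cleaves proteoglycans (chromosome 9, 30810451 to 30833748), was at 29.7, 18.6, 167 and 154 CPM in untreated C56BL6 animals and at 1.08, 0.632, 5.37 and 5.88 CPM after 10 Gy. In A. cahirinus it went from 2.06, 5.74, 3.88 and 2.14 CPM to 3.88, 9.4, 4.28 and 2.58 CPM, a small rise in each animal. The difference was 5.33 ± 0.18 (adjusted p = 1.3e-07). Others of these 10, apart from Angpt2 and Lum, described further on, encoded the angiopoietin Angpt4 (3.14), the cytokine Il33 (3.57), the membrane protein Vstm4 (3.64), the glutamate transporter Slc1a3 (3.51), the growth factor Ptn (3.33) and the R-spondin receptor Lgr6 (3.35).

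Lgr6 rose in A. cahirinus from 4.84, 2.34, 3.26 and 2.20 CPM to 34.1, 9.58, 29.4 and 28.2 CPM, a log2 change of 2.95 ± 0.25 (SE; adjusted p = 0.000103, edgeR). In C56BL6 it went from 190, 2.15, 4.75 and 1.28 CPM to 113, 2.97, 2.53 and 1.45 CPM. The 2 high values belong to animal 1, the animal with the keratinocyte markers, and 2 animals rose while 2 fell. Il33 also rose in A. cahirinus, by 1.14 ± 0.31, and fell in C56BL6, by 2.42 ± 0.33 on the log2 scale.

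By the same rule, the largest negative difference was in Tnfsf18, the ligand of the T cell costimulatory receptor GITR (chromosome 1, 161322224 to 161332859). It fell in A. cahirinus from 71.5, 30.9, 37 and 23 CPM to 16.2, 17.5, 20.4 and 15.4 CPM and rose in C56BL6 from 0.710, 0.911, 0.197 and 0.0658 CPM to 6.14, 15.2, 7.68 and 3.53 CPM. The change had opposite signs in 4 of 4 animals of each population, and the difference was -5.24 ± 0.46 (adjusted p = 6.27e-05). Hmga1, a chromatin architectural protein, went from 27.3, 40.2, 49.9 and 31.4 CPM to 22.5, 18.2, 31.1 and 26.4 CPM in A. cahirinus, short of the threshold (adjusted p = 0.0563). In C56BL6 it rose from 69.3, 39.3, 24.6 and 21.6 CPM to a mean of 125 ± 28.2 CPM (SD, n = 4), with every animal higher, so that the difference was -2.41 ± 0.29 (adjusted p = 0.000333).

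Cobl, an actin nucleator, rose from 12.5, 4.77, 2.36 and 2.11 CPM to 54, 38.7, 25.9 and 21.3 CPM in C56BL6 and had no called change in A. cahirinus (difference -2.75 ± 0.27). Other large negative differences were in the vanin pantetheinase Vnn1 (-3.15), the muscle regulator Perm1 (-2.65), the serotonin receptor Htr1b (-2.63), the Wnt inhibitor Nkd2 (-2.60), Fgd3, an exchange factor for a small GTPase (-2.57), the basement membrane netrin Ntn4 (-2.57) and the transcription factor Creb5 (-2.30). For Fgd3 the C56BL6 levels were uneven: 72.8, 2.19, 1.71 and 1.02 CPM untreated and 173, 23.6, 15.6 and 10.6 CPM irradiated, with animal 1 far above the others. The log2 change was 1.25 in C56BL6 animal 1 and 3.15 to 3.39 in the others. The rule that picked Fgd3 asked for animals that did not overlap, and its call was lost without the pairing.

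In 401 genes (2.89%) the called change had opposite directions in the populations and the difference was called. Angpt2, a context-dependent ligand of the endothelial receptor Tie2, rose in A. cahirinus from 5.41, 12.1, 3.67 and 3.53 CPM to 26.9, 67.8, 13.8 and 7.38 CPM and fell in C56BL6 from 52.2, 37.2, 40.9 and 28.2 CPM to 13.5, 6.92, 7.90 and 10.3 CPM. Its difference was 4.04 ± 0.31 (adjusted p = 2.66e-05). The arylsulfatase Arsi rose in A. cahirinus by 1.15 ± 0.07 and fell in C56BL6 by 1.40 ± 0.08 on the log2 scale. The alkaline phosphatase Alpl rose in A. cahirinus by 1.69 ± 0.33 and fell in C56BL6 by 1.18 ± 0.36. In the other orientation, Creb5 fell by 0.93 ± 0.15 in A. cahirinus and rose by 1.37 ± 0.17 in C56BL6, Htr1b fell by 1.31 ± 0.37 and rose by 1.32 ± 0.40, and Vnn1 fell by 0.95 ± 0.31 and rose by 2.20 ± 0.31.

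The p53 targets rose in both populations. Of 28 tested, 16 rose and 1 fell in A. cahirinus and 21 rose and 1 fell in C56BL6, against 12.3% and 22.7% of all genes rising. The median change was 0.42 in A. cahirinus and 0.54 in C56BL6, and the median difference was -0.16. The difference was called for 8 members, 2 positive and 6 negative, a share near the 25.3% of all genes called.

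Cdkn1a, the p21 kinase inhibitor, rose in A. cahirinus from 965, 692, 848 and 676 CPM to 1697, 1692, 1184 and 1224 CPM and in C56BL6 from 317, 579, 419 and 382 CPM to 703, 802, 790 and 842 CPM. All 8 animals rose and their changes overlapped: 0.86 ± 0.14 in A. cahirinus and 0.92 ± 0.14 in C56BL6, a difference of -0.06 ± 0.19 (adjusted p = 0.871). The cyclin Ccng1 rose by 1.13 ± 0.12 and 1.07 ± 0.12. For these genes a difference was not detectable with 4 animals a population, which does not show that the responses were equal.

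Mdm2, the ubiquitin ligase that degrades p53, rose less in A. cahirinus. It went from 106, 127, 89.2 and 88.7 CPM to 181, 276, 123 and 140 CPM there and from 96.2, 159, 104 and 105 CPM to 314, 397, 338 and 294 CPM in C56BL6. Every A. cahirinus change lay under every C56BL6 change, and the difference was -0.80 ± 0.15 (adjusted p = 0.00337). The kinase Plk2 (-0.87 ± 0.17) and the caspase adaptor Pidd1 (-0.98 ± 0.20) likewise rose in both and less in A. cahirinus. Mdm2, Plk2 and Pidd1 were not called without the pairing (edgeR adjusted p = 0.208, 0.141 and 0.182).

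Gdf15, a stress-induced secreted factor of the TGF-beta family (chromosome 8, 71082043 to 71085106), stayed at 3.38, 4.10, 3.09 and 3.87 CPM untreated and 3.4, 4.52, 3.53 and 3.77 CPM irradiated in A. cahirinus. In C56BL6 it rose from 0.675, 3.72, 2.26 and 0.789 CPM to 9.71, 11, 14.2 and 9.77 CPM. The difference was -2.71 ± 0.42 (adjusted p = 0.00123), the most negative of the list. Plk3, a stress kinase, had a difference of -1.63 ± 0.24 (adjusted p = 0.00101) and rose in C56BL6 alone by the threshold.

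Sesn1, a sestrin that restrains mTORC1 growth signalling, went against the direction of its list. It fell in C56BL6 from 34.9, 37, 36.1 and 38 CPM to 15.7, 15.7, 15.7 and 18 CPM, and went from 23.5, 20.0, 23 and 25.5 CPM to 19.7, 19.4, 19.5 and 21.5 CPM in A. cahirinus. The difference was 0.97 ± 0.10 (adjusted p = 0.000168). The ectodysplasin receptor Eda2r rose in both, by 1.26 ± 0.18 and 0.51 ± 0.17, with a difference of 0.75 ± 0.25 (adjusted p = 0.048). The repair nuclease Ercc5 had a small negative difference of -0.27 ± 0.09 (adjusted p = 0.044). Both calls were lost without the pairing. Each was also lost in at least 1 fit with 1 animal left out (largest edgeR adjusted p 0.122 and 0.129). Without A. cahirinus animal 1 the positive differences of the list numbered 1.

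Among 8 inhibitors of cyclin-dependent kinases, 5 had a positive difference and 0 a negative one, against 12.7% and 12.6% of all genes. Neither DESeq2, limma-voom nor an unadjusted p under 0.05 gave a negative call in this list. The median change was -0.17 in A. cahirinus and -0.99 in C56BL6, and the 5 called members moved in different ways.

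Cdkn2a, the locus of p16 and of the p53 activator p19Arf, whose transcripts are counted together here (chromosome 4, 89192708 to 89212890), rose in A. cahirinus from 49.9, 89.0, 33.5 and 49.5 CPM to 104, 171, 58 and 79.3 CPM. In C56BL6 it was at 113, 171, 110 and 115 CPM untreated and 100.9, 158.2, 107.7 and 141.5 CPM irradiated. All 4 A. cahirinus animals rose and 1 of 4 C56BL6 animals did, and the difference was 0.87 ± 0.13 (adjusted p = 0.00093). Without the pairing of libraries by animal it was not called (adjusted p = 0.271).

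The neighbouring inhibitor Cdkn2b rose in both populations, by 0.61 ± 0.07 and 0.34 ± 0.07, and its difference of 0.27 ± 0.10 missed the threshold (adjusted p = 0.0634). Cdkn1b, the p27 inhibitor, fell in both: from 50.7, 53.8, 55.2 and 52.2 CPM to 34.1, 39.6, 32.6 and 33.2 CPM in A. cahirinus and from 114, 118, 137 and 149 CPM to 38.6, 46.3, 50.3 and 52.4 CPM in C56BL6. It fell less in A. cahirinus (difference 0.86 ± 0.10, adjusted p = 0.00026). Cdkn2c, the p18 inhibitor, also fell less there (0.88 ± 0.14). Cdkn2d (0.71 ± 0.14) and the phosphatase Cdkn3 (0.93 ± 0.23) fell in C56BL6 with no called change in A. cahirinus.

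Mitotic genes did not separate the populations at this dose. Of 30 tested, edgeR called 0 differences, DESeq2 and limma-voom also called 0, and 0 reached an unadjusted p under 0.05. Their median change was -0.50 in A. cahirinus, with 3 called falls (Ccnb2, Cdk1 and Cenpa), and -0.46 in C56BL6, with 5 called falls (Bub1b, Ccnb1, Ccnb2, Cenpa and Nuf2). Against 11.8% and 21.5% of all genes falling, these shares of 3 and 5 in 30 are near the background.

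The animals spread widely. Mki67, the proliferation marker, was at 48.6, 54.2, 61 and 69.3 CPM untreated and 31.6, 16, 58.9 and 50.5 CPM irradiated in A. cahirinus, and at 55.6, 15.6, 8.92 and 12.1 CPM and 28.9, 7.37, 11 and 7.32 CPM in C56BL6. A. cahirinus animal 2 fell most and animal 3 hardly moved, and C56BL6 animal 1 was high in both states. The difference was -0.07 ± 0.37. Top2a, the topoisomerase of dividing cells, had a difference of -0.02 ± 0.37, and Lmnb1, which encodes lamin B1, one of -0.11 ± 0.29.

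DNA replication genes gave 1 positive and 3 negative differences among 29 (median -0.12), below the 12.7% and 12.6% of all genes. The largest was Rrm2, the small subunit of ribonucleotide reductase, which rose in C56BL6 by 1.26 ± 0.20 and did not pass in A. cahirinus, with a difference of -1.28 ± 0.28 (adjusted p = 0.00739). The transcription factor E2f1 (-0.38 ± 0.10) and the polymerase subunit Pola1 (-0.58 ± 0.18) fell in A. cahirinus, and the flap nuclease Fen1 (0.93 ± 0.26) fell in C56BL6. Of 15 homologous recombination genes, 0 differences were called by edgeR, DESeq2 or limma-voom, and 1 reached an unadjusted p under 0.05. Among 14 nuclear envelope and HMGB genes, the chromatin proteins Hmgn2 (0.85 ± 0.15) and Hmgb1 (0.66 ± 0.10) fell in C56BL6 with positive differences. Lmnb2 had a negative one (-0.59 ± 0.18), which was lost in most fits with 1 animal left out, with limma-voom and without the pairing. Of all genes, 25.3% had a called difference. The negative replication calls numbered 1 without C56BL6 animal 3, and the positive one was lost without A. cahirinus animal 3.

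The same comparison at 20 Gy, which shares the untreated libraries, differed from that at 10 Gy in these genes. The contrast between doses, in which the untreated libraries cancel, was called for 384 of 14298 genes (2.69%), 98 positive (0.685%) and 286 negative (2%). Of the 30 mitotic genes, 22 were among the negative calls, with a median of -2.04, and 13 of 29 replication genes were, with a median of -0.83. At 20 Gy itself the difference of changes was called for 42.3% of genes, 53.9% changed in A. cahirinus and 52.7% in C56BL6, and the median change of the mitotic genes was -3.04 in A. cahirinus and -1.08 in C56BL6.

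Mean log2 CPM over the 30 mitotic genes was 3.99, 4.23, 4.5 and 4.5 in untreated A. cahirinus, 3.75, 2.87, 4.5 and 4.12 at 10 Gy and 1.20, 1.25, 1.67 and 1.41 at 20 Gy. In C56BL6 it was 4.66, 3.24, 2.36 and 2.54 untreated, 3.91, 2.02, 2.54 and 2.38 at 10 Gy and 2.86, 1.70, 2.39 and 1.75 at 20 Gy. The 20 Gy libraries of A. cahirinus lay below all its 10 Gy libraries, and the doses overlapped in C56BL6. The untreated C56BL6 animals 2 to 4 were already low, while cells labelled untreated passaged stood at 5.67 to 6.18 in C56BL6 and 4.64 to 5.47 in A. cahirinus.

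The count of genes that differed between doses depended on single animals. It was 147, 1783, 65 and 130 without A. cahirinus animals 1 to 4. Without C56BL6 animals 1 to 4 it was 326, 127, 120 and 143, and without the pairing it was 4. The mitotic genes called ranged from 13 to 26 with 1 animal left out, and were 0 without the pairing, where their median was still -2.01. DESeq2 called 26 of them. With A. cahirinus animal 2 and C56BL6 animal 1 both left out, 1881 genes and 26 mitotic genes were called.

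**Figure D3:**
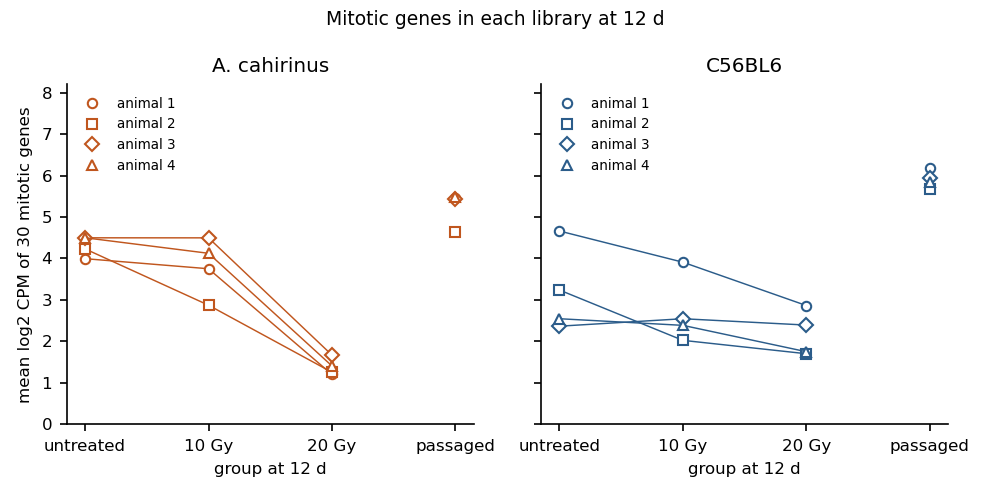
Mean log2 CPM of 30 mitotic genes (y axis) in each library at 12 d by group (x axis), with 1 symbol per animal and lines joining the doses of an animal. A. cahirinus animals stay between 2.87 and 4.5 at 10 Gy and drop to between 1.20 and 1.67 at 20 Gy; C56BL6 animals start between 2.36 and 4.66.

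Interferon-stimulated genes rose in C56BL6 and not, as a group, in A. cahirinus. Of 36 listed, 30 were joined by symbol and tested. In C56BL6 28 rose and 1 fell (median change 0.96), while in A. cahirinus 2 rose and 5 fell (median 0.11). Of all genes, 22.7% rose and 21.5% fell in C56BL6, and 12.3% rose and 11.8% fell in A. cahirinus. The difference was called for 17, 16 negative and 1 positive, with a median of -0.90 against -0.02 over all genes and 12.6% negative calls.

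Low reads in A. cahirinus limit some members. Of the 30, 18 had at least 1 CPM in at least 4 of 8 libraries of each population. Among them 12 differences were negative and 1 positive, with a median of -0.83. The median change was -0.09 in A. cahirinus and 0.61 in C56BL6. Of the 10712 tested genes at that level, 1318 differences were negative and 1581 positive, 27.1% in all. Gbp2 and Oas3 had 0 counts in all A. cahirinus libraries of the comparison and give no ratio there.

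Isg15, a ubiquitin-like protein that is conjugated to other proteins after interferon, was at 1.08, 1.43, 1.13 and 0.896 CPM in untreated A. cahirinus and at 0.618, 1.11, 0.627 and 0.919 CPM after 10 Gy. In C56BL6 it rose from 8.27, 11.5, 5.80 and 6.41 CPM to 38.6, 33.8, 27.3 and 32.6 CPM. All C56BL6 animals rose and 1 of 4 A. cahirinus animals did, and the difference was -2.56 ± 0.27 (adjusted p = 0.00015). Bst2, the tetherin that holds budding virus at the membrane (chromosome 8, 71986899 to 71990100), went from 8.60, 7.81, 8.24 and 6.24 CPM to 5.83, 9.4, 3.53 and 3.94 CPM in A. cahirinus and rose in C56BL6 from 41.4, 36, 21.4 and 19.5 CPM to 94.2, 80.7, 66.5 and 80.5 CPM (difference -2.03 ± 0.29, adjusted p = 0.00088).

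Summed leukocyte and macrophage markers were 11.7 to 16.9 CPM untreated and 21.5 to 31.2 CPM irradiated in C56BL6, higher in 4 of 4 animals, with 5 or 6 of the 10 markers at 0 counts untreated and 3 irradiated. In A. cahirinus they were 6.14 to 7.61 CPM and 6.81 to 9.07 CPM, also higher in 4 of 4 animals, with 2 or 3 at 0 counts. Their part in the interferon result was not tested.

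Sensors and signalling components went the same way. The RNA sensor Ifih1 (-1.41 ± 0.21) and the subunits Stat2 (-0.85 ± 0.11) and Irf9 (-0.82 ± 0.12) of the factor that binds interferon response elements rose in C56BL6 and fell in A. cahirinus, as did the ubiquitin ligase Trim25 (-0.62 ± 0.10). Stat2 went from 32.1, 43.7, 29.2 and 32.9 CPM to 24.2, 36.7, 24.0 and 27 CPM in A. cahirinus, lower in 4 of 4 animals, and from 58.7, 73.3, 56.7 and 66.3 CPM to 93.2, 95.2, 96 and 85.5 CPM in C56BL6, higher in 4 of 4. The regulator Irf7 (-1.47 ± 0.24) and the nucleic acid sensor Zbp1 (-1.61 ± 0.21) rose in C56BL6 without a called change in A. cahirinus.

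Not every member followed. The kinase Eif2ak2 rose in both, by 0.44 ± 0.10 and 0.52 ± 0.09, with no called difference, and the chemokine Cxcl10 rose in both at low reads in A. cahirinus. Ifitm3, a membrane protein that blocks virus entry, fell in A. cahirinus by 1.10 ± 0.16 and had no called change in C56BL6. Irf1 had the 1 positive difference (0.52 ± 0.17, adjusted p = 0.0482), since it fell in C56BL6. That call was lost in most fits with 1 animal left out (largest adjusted p 0.128) and without the pairing. The number of negative calls stayed between 14 and 17 with any 1 animal left out and was 8 without the pairing. In a separate fit of wild house mice at the same dose and time, 26 of the 30 rose, against 6.11% of genes rising and 7.09% falling (13.2% called in all).

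Promoters of the mouse genes were searched for an interferon-stimulated response element taken as GAAA, any 2 bases, then GAAA again, on both strands, in the 300 bases from 250 before to 50 after the start (RefSeq, GRCm38.p6, which is not the build of the counts). It occurred in 14 of the 27 listed interferon genes with a promoter sequence, against 1079 of 27025 genes (3.99%). Among tested genes it occurred in 12 of 24 listed and in 390 of all 10997 (3.55%). Called negative differences occurred with and without a match. Bst2, Ifih1, Ifitm3, Isg15, Rsad2 and Stat2 had both the call and a match. Herc6, Ifi35, Irf7, Irf9, Oasl2, Trim25 and Xaf1 had the call without a match. Cxcl10, Eif2ak2, Gbp2, Ifit1, Ifit3 and Oas3 had a match without a called difference. A relation between match and call was not tested. The 4 stretches that follow are shown as examples from genes of the list with a called negative difference, with the match in capitals; in Rsad2 and Stat2 the match is on the opposite strand. Matches can overlap, as they do in Isg15 and Bst2. A match describes letters, not a bound site, and no promoter of A. cahirinus was used here. They lie at chr4:156200861-156200910, chr8:71537567-71537616, chr12:26456543-26456592 and chr10:128270256-128270305, in that order, with genes on the minus, minus, minus and plus strands.
Isg15: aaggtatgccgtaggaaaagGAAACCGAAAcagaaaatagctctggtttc
Bst2: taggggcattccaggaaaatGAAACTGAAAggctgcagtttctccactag
Rsad2: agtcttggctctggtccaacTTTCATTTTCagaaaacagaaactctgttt
Stat2: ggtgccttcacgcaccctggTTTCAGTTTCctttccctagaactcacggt

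Rsad2, which encodes viperin, an enzyme that makes a chain-terminating nucleotide, was at 0.0911 to 0.309 CPM in all 8 A. cahirinus libraries, near the floor of 3 counts. In C56BL6 it rose from 0.320, 0.328, 0.0984 and 0.395 CPM to 2.38, 1.49, 3.20 and 2.71 CPM.

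Genes of class I antigen presentation were mixed. Of 12 tested, 3 differences were positive and 2 negative (median 0.31), against 12.7% and 12.6% of all genes. Tapbp, the tapasin chaperone that loads peptides, rose in A. cahirinus from 89.1, 130, 82.9 and 86.0 CPM to 139, 190, 105 and 100 CPM and fell in C56BL6 from 172, 111, 129 and 143 CPM to 87.9, 62.2, 67.9 and 81.4 CPM. All animals of a population moved the same way, with a difference of 1.33 ± 0.11 (adjusted p = 3.69e-05). B2m, the invariant light chain, rose in C56BL6 by 0.64 ± 0.08, with a difference of -0.42 ± 0.12 (adjusted p = 0.0262). That call was lost in most fits with 1 animal left out and without the pairing. The positive calls numbered 1 without A. cahirinus animal 1, and the negative ones 0 without animal 4.

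Complement genes fell in C56BL6: 8 of 14 tested fell and 1 rose (median -1.75), against 3 falls and 0 rises in A. cahirinus (median -0.16). In A. cahirinus 1 rise had an unadjusted p under 0.05, and DESeq2 and limma-voom called 0. The difference was positive for 5 and negative for 0, with 0 negative at an unadjusted p under 0.05, and DESeq2 and limma-voom gave 6 and 5 positive and 0 negative calls. Serping1, the C1 inhibitor, fell in C56BL6 from 60.2, 345, 854 and 790 CPM to 9.53, 125, 189 and 234 CPM and went from 66.7, 98, 74.1 and 86.0 CPM to 71.7, 96.3, 62.1 and 61 CPM in A. cahirinus. C56BL6 animal 1 was lowest in both states, and all 4 fell (difference 1.82 ± 0.23, adjusted p = 0.000453). The proteases C1ra (1.47 ± 0.28) and C1s1 (0.78 ± 0.24), C2 (1.10 ± 0.31) and factor B, Cfb (2.86 ± 0.38), made up the rest. Without A. cahirinus animal 1 the positive calls numbered 3. Of all genes, 21.5% fell in C56BL6, 11.8% fell in A. cahirinus and 12.7% had a positive difference. Reads of this list were few in A. cahirinus, with a mean log2 CPM of -0.44 to 0.51 per library. Of the 14, 8 had at least 1 CPM in at least 4 of 8 libraries of each population. Among the 8, 5 fell in C56BL6 (median -1.75), 3 fell in A. cahirinus (median -0.30) and 4 differences were positive. Of the 10712 tested genes at that level, 2680 fell in C56BL6, 1474 fell in A. cahirinus and 1581 differences were positive.

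Most collagen genes fell in C56BL6, and fewer did in A. cahirinus. Of 23, 16 fell and 2 rose in C56BL6 (median -1.26) and 10 fell and 6 rose in A. cahirinus (median -0.24). Falls were above the share over all genes in both populations, which was 21.5% in C56BL6 and 11.8% in A. cahirinus. The difference was positive for 12 and negative for 1, with a median of 0.65, against 12.7% and 12.6% of all genes. Fibroblast markers, of which Col1a1, Col1a2, Dcn and Lum are also in the collagen or matrix list, fell in sum in C56BL6 as given above.

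Col3a1, the fibrillar collagen of young and healing skin, fell in C56BL6 from 6138, 11520, 28780 and 24160 CPM to 691, 1508, 3672 and 3248 CPM. In A. cahirinus it went from 4297, 6089, 4733 and 5740 CPM to 3104, 6403, 3073 and 4290 CPM, lower in 3 of 4 animals. The difference was 2.63 ± 0.17 (adjusted p = 1.1e-05). The type I chains Col1a1 (0.78 ± 0.15) and Col1a2 (1.21 ± 0.15) also fell in both and less in A. cahirinus, as did the type VI chains Col6a1 (0.77 ± 0.19) and Col6a2 (0.73 ± 0.19).

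Some collagens rose in A. cahirinus and fell in C56BL6: the basement membrane-associated Col15a1 (by 1.12 ± 0.20 and -1.29 ± 0.19), the network collagens Col8a1 (1.05 ± 0.14 and -0.39 ± 0.14) and Col8a2 (0.60 ± 0.16 and -2.36 ± 0.19), and Col11a1 (0.74 ± 0.19 and -1.41 ± 0.20). Col14a1 had the largest difference of the list at 3.24 ± 0.67 (adjusted p = 0.00584), but the changes of single animals overlapped. Col7a1, the anchoring fibril collagen, had the only negative one, -1.15 ± 0.33 (adjusted p = 0.0273), and rose in C56BL6. That call was lost in most fits with 1 animal left out, with limma-voom and without the pairing.

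Most matrix glycoproteins and proteoglycans fell in C56BL6. Of 32 tested, 24 fell and 2 rose in C56BL6 (median -1.07), and 5 fell and 1 rose in A. cahirinus (median -0.09). Of all genes, 21.5% fell in C56BL6 and 11.8% in A. cahirinus, so the 5 of 32 in A. cahirinus are near that share. The difference was positive for 20 and negative for 1 (median 0.97), against 12.7% and 12.6% of all genes. Among the 25 at 1 CPM or more in both populations, 14 were positive and 1 negative, with a median of 0.57. All 10712 tested genes at that level had 1581 positive and 1318 negative differences (27.1% called). The 22 collagens at that level had a median of 0.69.

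Postn, which encodes periostin, a matricellular protein of wounds and fibrous tissue, was at 12130, 13670, 9511 and 11340 CPM in untreated A. cahirinus and 9861, 13080, 9778 and 10910 CPM after 10 Gy. In C56BL6 it fell from 2087, 2941, 1952 and 1656 CPM to 485, 309, 329 and 337 CPM. The groups of C56BL6 did not overlap and those of A. cahirinus did, with a difference of 2.46 ± 0.23 (adjusted p = 8.2e-05).

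Lum, the keratan sulfate proteoglycan lumican (chromosome 10, 97400990 to 97408565), went from 195, 809, 153 and 236 CPM to 350, 1496, 250 and 175 CPM in A. cahirinus, up in 3 of 4 animals and not called. It fell in C56BL6 from 5.47, 99.4, 93.4 and 58.9 CPM to 1.91, 6.45, 6.11 and 6.93 CPM. The difference was 3.84 ± 0.45 (adjusted p = 0.00032). The related proteoglycans Aspn (2.78 ± 0.37), Podn (2.71 ± 0.20), Ogn (2.42 ± 0.36), Fmod (1.92 ± 0.28), Dcn (1.10 ± 0.31) and Bgn (0.37 ± 0.12) had positive differences too. Without the pairing Podn kept its call, and Aspn, Ogn, Fmod, Dcn and Bgn lost theirs. Dcn and Bgn were also lost in at least 1 fit with 1 animal left out (largest edgeR adjusted p 0.0678 and 0.113).

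Elastic fibre genes were among them: elastin, Eln (2.53 ± 0.50), fibulin Fbln1 (2.59 ± 0.23) and the fibrillins Fbn1 (0.57 ± 0.12) and Fbn2 (5.42 ± 0.25). Fbn2 rose in A. cahirinus from a mean of 0.843 ± 0.486 CPM to 2.17 ± 1.33 CPM (SD, n = 4) and fell in C56BL6 from 35.1 ± 24.7 to 1.98 ± 1.25 CPM. Fibronectin, Fn1, did not pass (-0.56 ± 0.20, adjusted p = 0.066). The negative call was tenascin C, Tnc (-0.52 ± 0.17, adjusted p = 0.0454), which rose in C56BL6. It was lost in most fits with 1 animal left out and without the pairing.

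**Figure D4:**
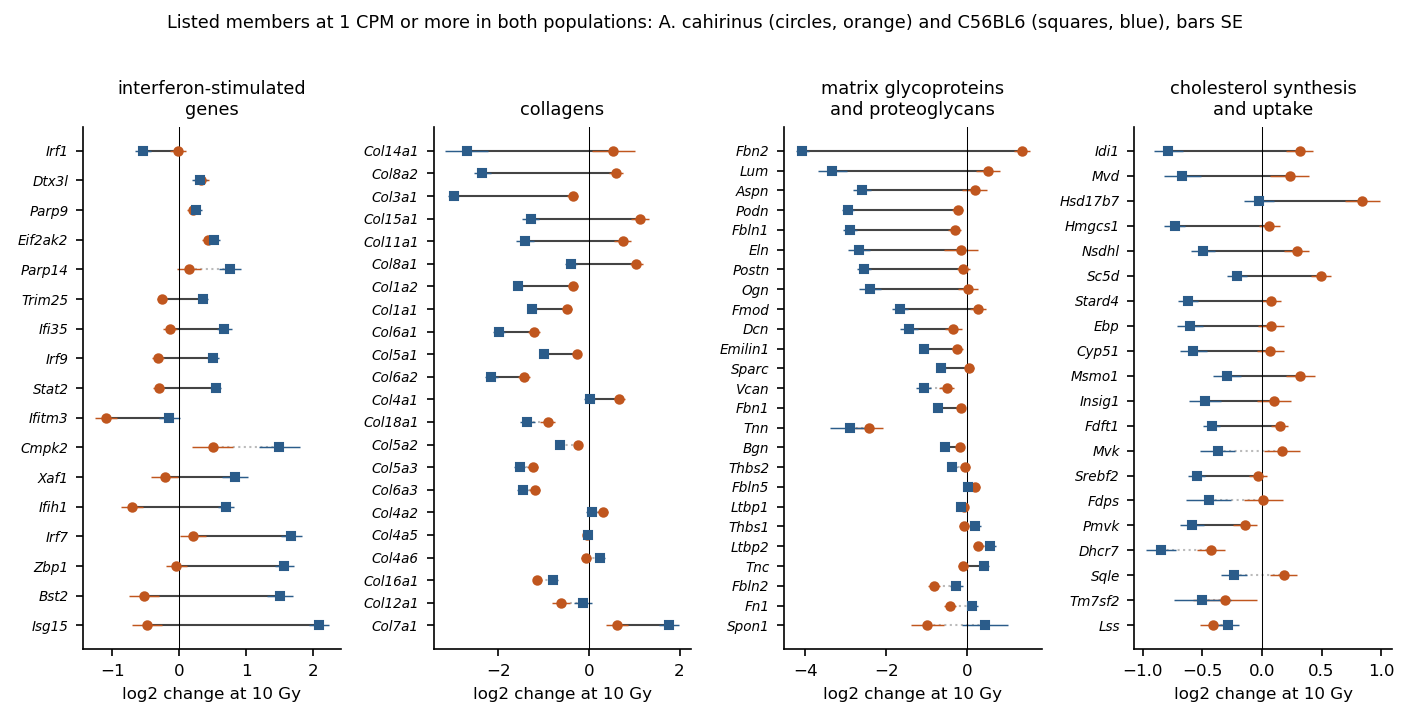
Log2 change at 10 Gy (x axis) of members at 1 CPM or more in both populations, for 4 lists with a few members left out, with A. cahirinus as orange circles, C56BL6 as blue squares and bars of 1 SE; solid lines join called differences and dotted lines the others. Postn moves by -0.09 in A. cahirinus and by -2.55 in C56BL6, and Isg15 by -0.48 and 2.08.

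Contractile genes gave 4 negative differences among 15 and 0 positive, and DESeq2 and limma-voom likewise gave 0 positive, as did an unadjusted p under 0.05. The 4 of 15 called are near the 25.3% of all genes called. Myh11, smooth muscle myosin, fell in A. cahirinus from 54.2, 28.5, 21.2 and 24.9 CPM to 23.8, 25.3, 11.4 and 10.4 CPM and rose in C56BL6 from 18.6, 28.4, 33.5 and 30.8 CPM to 42.2, 63.8, 74.2 and 73.0 CPM (difference -2.06 ± 0.20, adjusted p = 0.00012). The intermediate filament desmin, Des (-1.28 ± 0.22), the actin crosslinker Actn1 (-0.76 ± 0.13) and caldesmon, Cald1 (-0.41 ± 0.13), rose in C56BL6 without a called change in A. cahirinus. Without the pairing Des, Actn1 and Cald1 were not called. Cald1 was also lost in at least 1 fit with 1 animal left out (largest edgeR adjusted p 0.134). Smooth muscle actin, Acta2, did not pass (-0.24 ± 0.22). Summed smooth muscle and pericyte markers, which include Myh11, were 251 to 351 CPM untreated and 233 to 375 CPM irradiated in A. cahirinus, and 120 to 211 and 166 to 315 CPM in C56BL6, and their part was not tested.

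Genes of cholesterol synthesis and uptake fell in C56BL6 and mostly had no called change in A. cahirinus. Of 24, 15 fell and 0 rose in C56BL6 (median -0.50), and 4 rose and 2 fell in A. cahirinus (median 0.15). Of all genes, 21.5% fell and 22.7% rose in C56BL6, and 12.3% rose and 11.8% fell in A. cahirinus. The 4 rises and 2 falls of 24 in A. cahirinus are near those shares. The difference was positive for 17 and negative for 0 (median 0.63), against 12.7% and 12.6% of all genes. DESeq2 and limma-voom both gave 17 positive and 0 negative calls. No negative difference and no rise in C56BL6 had an unadjusted p under 0.05, and neither tool called a rise there. With 1 animal left out 14 to 18 were positive, and 7 were without the pairing.

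Idi1, isopentenyl diphosphate isomerase (chromosome 13, 8935537 to 8942487), went from 16.9, 17, 16.1 and 16.3 CPM to 19.7, 23, 21.6 and 18.5 CPM in A. cahirinus, up in 4 of 4 animals but short of the threshold (adjusted p = 0.067). In C56BL6 it fell from 12.5, 16.3, 11.5 and 12.0 CPM to 8.23, 6.96, 6.59 and 8.44 CPM. The difference was 1.10 ± 0.17 (adjusted p = 0.0011). The early enzyme Hmgcs1 had a difference of 0.79 ± 0.12, the late enzyme Hsd17b7 of 0.87 ± 0.20, and the master regulator Srebf2 of 0.51 ± 0.10.

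One exact form of the sterol regulatory element, searched on both strands of the 300-base promoter windows described above, occurred in 0 of 16 listed genes with a promoter sequence and in 27 of 27025 genes (0.0999%), which says only that these exact letters were not in those windows.

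Adipogenic and lipid storage genes split, with 6 positive and 3 negative differences among 18, against 12.7% and 12.6% of all genes. Of the 18, 9 had at least 1 CPM in at least 4 of 8 libraries of each population. Among the 9, 2 differences were positive and 2 negative. At that level 1581 of 10712 tested genes had a positive difference and 1318 a negative one. Besides Car3, the lipoprotein lipase Lpl rose in A. cahirinus by 1.44 ± 0.29 and fell in C56BL6 by 2.40 ± 0.17 on the log2 scale (difference 3.84 ± 0.34, adjusted p = 6e-05). Its A. cahirinus levels were low, 0.135 to 3.89 CPM untreated and 0.789 to 13.9 CPM irradiated, with animal 2 highest. The lipid droplet coat Plin2 (-0.69 ± 0.13) and the acyltransferase Dgat2 (-0.97 ± 0.19) rose in C56BL6 and had negative differences. Without A. cahirinus animal 1 the positive calls numbered 4. The list's median of -0.04 turned positive, up to 0.57, in other settings.

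Genes of the secretory phenotype moved in both directions. Of 42 listed, 39 were tested and Il1a, Il1b and Csf2 fell under the expression filter. In A. cahirinus 13 rose and 4 fell (median 0.81), and in C56BL6 20 rose and 9 fell (median 0.49). Of all genes, 12.3% rose in A. cahirinus and 22.7% in C56BL6. At 1 CPM or more in at least 4 of 8 libraries of each population there were 28 members, and the order of the medians reversed. Among the 28, 8 rose and 4 fell in A. cahirinus (median 0.24), and 14 rose and 8 fell in C56BL6 (median 0.37). Of the 10712 tested genes at that level, 1324 rose and 1474 fell in A. cahirinus, and 2226 rose and 2680 fell in C56BL6. Of the differences over all 39, 9 were positive and 11 negative (median -0.03), against 12.7% and 12.6% of all genes. Among the 28, 7 were positive and 9 negative, against 1581 and 1318 of the 10712 genes.

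Among cytokines, Il6 rose in both: from 3.76, 7.56, 1.89 and 1.27 CPM to 11.1, 18.9, 6.30 and 6.38 CPM in A. cahirinus and from 5.18, 20.9, 43.6 and 44.8 CPM to 14, 63.6, 103 and 107 CPM in C56BL6. All 8 animals rose, by 1.67 ± 0.14 and 1.38 ± 0.12, and the difference of 0.29 ± 0.18 was not called (adjusted p = 0.279). The monocyte chemokine Ccl2 rose in both and less in A. cahirinus, from 20.7, 37, 14.6 and 15.2 CPM to 94, 184, 53 and 61.5 CPM there and from 15.1, 16.3, 15.7 and 14.8 CPM to 86.2, 137, 178 and 194 CPM in C56BL6 (difference -1.10 ± 0.22, adjusted p = 0.0057). Cxcl12, the stromal chemokine, fell in C56BL6 (difference 2.54 ± 0.56).

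Of the proteases and their receptors, the plasminogen activator receptor Plaur went from 10.2, 10.8, 11.7 and 12.1 CPM to 7.41, 7.57, 10.7 and 9.4 CPM in A. cahirinus and rose from 31.2, 16.1, 11.7 and 10.8 CPM to 72.8, 41.6, 43.9 and 41.9 CPM in C56BL6 (difference -1.97 ± 0.18, adjusted p = 8.8e-05). The collagenase Mmp13 rose in both (-2.70 ± 0.73), at low levels. The gelatinase Mmp2 (0.94 ± 0.24), its activator Mmp14 (0.65 ± 0.11) and the activator Plat (1.03 ± 0.15) fell in C56BL6.

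Binding proteins of insulin-like growth factors went separate ways. Igfbp3 fell in C56BL6 from 140, 426, 177 and 257 CPM to 20.1, 72.3, 14.2 and 42 CPM and was at 191, 75.0, 146 and 164 CPM and 148, 93.9, 136 and 172 CPM in A. cahirinus (difference 2.87 ± 0.23, adjusted p = 3.62e-05). Igfbp6 rose in A. cahirinus (1.89 ± 0.25). Igfbp5 rose in C56BL6, with a difference of -2.08 ± 0.60 (adjusted p = 0.028) that was lost in most fits with 1 animal left out and without the pairing. The growth factor Igf1 fell in both and more in A. cahirinus (-0.92 ± 0.20).

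**Figure D5:**
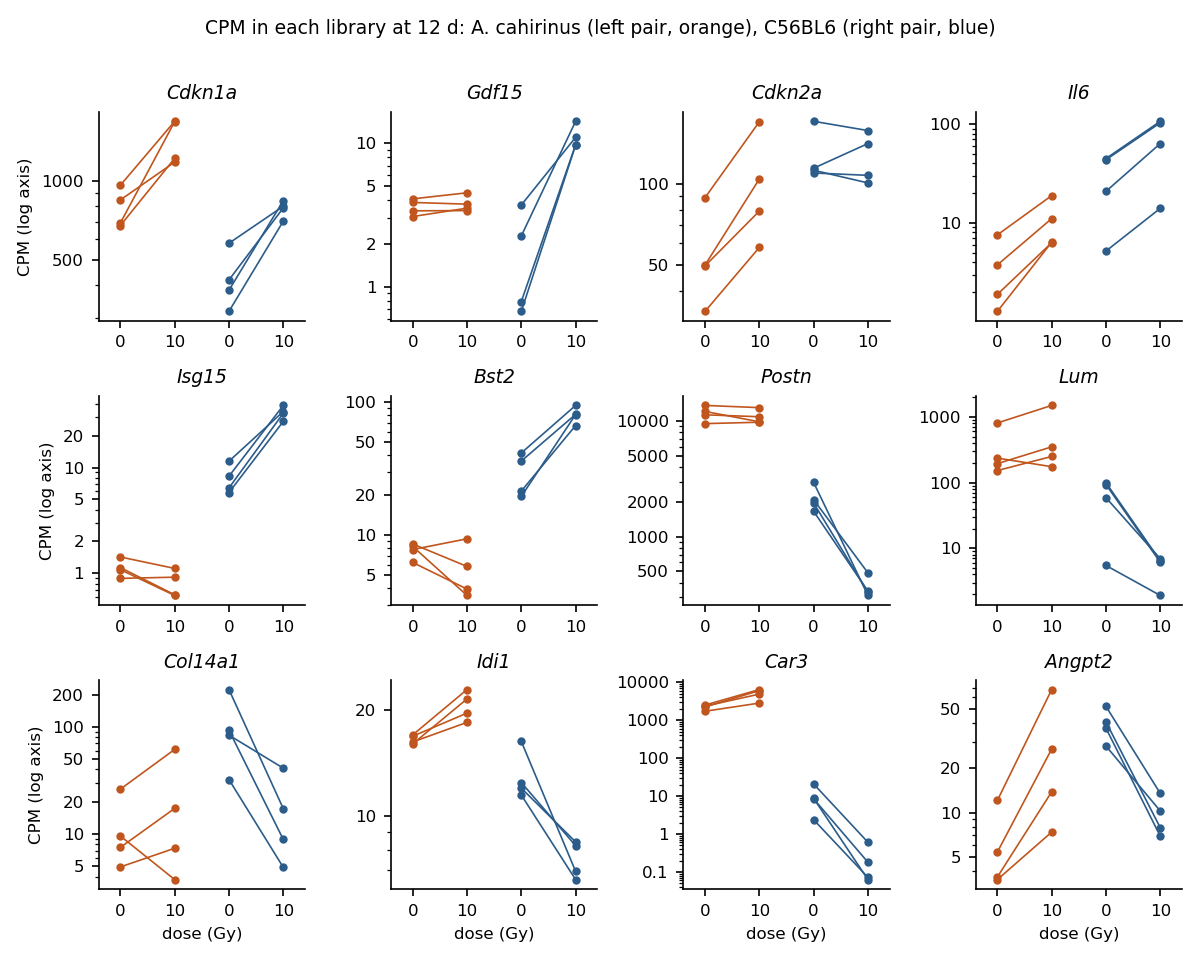
CPM on a log axis against dose in each library at 12 d for 12 genes, with lines joining the libraries of an animal (A. cahirinus, left pair, orange; C56BL6, right pair, blue). Cdkn1a and Il6 rise in all 8 animals, Isg15 and Gdf15 rise in the C56BL6 animals, and Postn and Lum fall in the C56BL6 animals; levels are not comparable between populations.

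Lysosomal genes gave 12 positive differences and 1 negative among 29, with a small median of 0.18, against 12.7% and 12.6% of all genes. Lamp2, a membrane protein of the lysosome, fell in C56BL6 from 631, 712, 940 and 999 CPM to 415, 429, 445 and 486 CPM and stayed between 132 and 152 CPM in all 8 A. cahirinus libraries (difference 0.86 ± 0.12, adjusted p = 0.000874). Glb1, the enzyme behind senescence-associated beta-galactosidase staining, fell in C56BL6 by 0.38 ± 0.07 and had no called change in A. cahirinus (difference 0.39 ± 0.10). The peptidase Tpp1 had the negative difference (-0.52 ± 0.11). The positive count fell to 6 without A. cahirinus animal 1.

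Of 24 antioxidant and glutathione genes, 9 rose in A. cahirinus and 13 in C56BL6, with 3 positive and 4 negative differences. Against 12.3% and 22.7% of all genes rising and 25.3% with a called difference, the 7 of 24 differences are near the background. Heme oxygenase, Hmox1, rose in both by 1.39 ± 0.08 and 1.34 ± 0.07. Gclc, the catalytic subunit that limits glutathione synthesis, went from 41.8, 42.7, 40.8 and 43.1 CPM to 48.4, 46.7, 44.4 and 46.8 CPM in A. cahirinus and rose from 18.3, 24.7, 21.7 and 21.5 CPM to 52.7, 63.5, 58.2 and 55 CPM in C56BL6. All 8 animals were higher after irradiation, every A. cahirinus animal by less, with a difference of -1.27 ± 0.09 (adjusted p = 1.7e-05) that was also called without the pairing. Gpx4, the peroxidase that guards membrane lipids, rose in A. cahirinus by 0.61 ± 0.12 (difference 0.63 ± 0.17). Without A. cahirinus animal 1 no positive difference of this list was called.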

How the data were processed

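RNA of primary skin fibroblasts was sequenced 12 d after treatment. Per the file headers, the authors counted reads per gene with featureCounts 2.0.3, and the submitters' processing notes name Trim Galore, HISAT2 and the build GRCm39. The deposited values are raw counts, and the recorded commands set no strand option, so antisense and overlapping genes are uncertain. Tables were joined on symbols found once in each (18109).

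Counts were fitted with edgeR 4.0.16 (R 4.3.3): TMM factors within each table (0.921 to 1.05), edgeR's expression filter, an animal block and 6 residual degrees of freedom, with Benjamini-Hochberg adjustment over all genes tested. The procedure was tested on simulated data. Animal codes in the library names give the pairing. Deviations from the group mean were correlated between untreated and irradiated libraries across 13871 genes. In A. cahirinus same-numbered libraries correlated at 0.357 to 0.795 and other pairs at -0.685 to 0.26. In C56BL6 these were 0.469 to 0.767 and -0.649 to 0.504, so the ranges overlapped there. Taking deviations from a mean of 4 lowers the correlations of other pairs by itself. Replicates are 4 animals a group. A floor of 3 counts equals 0.0715 to 0.111 CPM.

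Members and gene lists were chosen with earlier results of these data known. Genes named by rule were the 10 largest differences in each direction among genes with a mean of 5 CPM or more in at least 1 group of each population and no overlap of animals, 4 opposite changes in each orientation, a fixed panel, and the most extreme called member of each list. Other list members were named after their values were seen. Alternatives were DESeq2 1.42.0, limma-voom 3.58.1, other scaling and filters, no pairing, and leaving out animals, the last pair of animals being chosen after seeing the data. Results of a few genes are not reported here, though list counts and medians include them.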

Additional observations from a re-analysis of the deposited data

Results flagged for a closer look

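The difference between the populations' responses was itself tested, and 3514 genes passed at 10 Gy. The difference between doses passed for 384. Single animals also stood apart from the other 3 of their group by Dixon's criterion in 17 of 182 groups of 4 (9.34%), where chance gives about 1 in 20.

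Among log2 changes in A. cahirinus, Gclc was 0.212 in animal 1 (others 0.116 to 0.129), Hmgn2 -0.55 in animal 2 (others -0.0215 to 0.0371) and Lum -0.434 in animal 4 (others 0.713 to 0.886). Plk3 was 0.532 in animal 2 (others 0.0618 to 0.0683), and Sesn1 -0.0422 in animal 2 (others -0.251 to -0.239). In animal 4 the median change was -0.34 over the CDK inhibitors (others -0.0472 to -0.0182) and -0.369 over the complement genes (others -0.0394 to 0).

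In C56BL6 animal 1, the log2 change of Fgd3 was 1.25 (others 3.15 to 3.39), of Nkd2 0.421 (others 2.16 to 2.35), of Plk3 1.06 (others 1.96 to 2.14) and of Slc1a3 -1.25 (others -3.31 to -3.18). The same animal had 966 CPM of keratinocyte markers untreated (others 1.51 to 1.93) and 258 CPM irradiated (others 3.77 to 4.65). It also had 26.8 CPM of endothelial markers irradiated (others 7.66 to 7.87) and 20.9 CPM of Schwann cell markers untreated (others 7.32 to 9.41). C56BL6 animal 2 had 211 CPM of smooth muscle and pericyte markers untreated (others 120 to 130), and A. cahirinus animal 2 had 64.6 CPM of Schwann cell markers irradiated (others 33 to 37.1).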

How the results depend on the processing

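Without the replicate block the differences numbered 828 in place of 3514, and 827 of them were shared. The changes then numbered 518 in A. cahirinus and 3260 in C56BL6, and the differences between doses 4. With 1 animal left out, counts ranged from 2349 to 3738 for the difference, 1608 to 3903 for A. cahirinus, 4495 to 6402 for C56BL6 and 65 to 1783 for the contrast between doses. DESeq2 called 911 genes in that contrast, and leaving out both animals that stood apart gave 1881. For the difference at 10 Gy, RLE scaling gave 3474, no expression filter 3318, a filter in both populations 3075, DESeq2 3685, limma-voom 3563 and a fit of all 12 d groups 4149. Of 49 called named genes, none changed direction in these settings, 42 were called in every fit with 1 animal left out and 23 without the block. Calls given above without a remark on these settings were not all kept in them. The cause of these shifts was not tested. Fold changes of genes near the floor of 3 counts are imprecise in both populations.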

Other observations

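Wild house mice of the same series were also read 12 d after 10 Gy, in a fit of their own with 4 pairs, of which replicates 1 and 4 may not be separate animals. In that fit edgeR called 1612 of 12208 genes (13.2%), 746 higher (6.11%) and 866 lower (7.09%). Interferon-stimulated genes rose in 26 of 30 (median log2 change 1.33), among them Isg15 by 2.86 (adjusted p = 0.00197) and Bst2 by 1.85 (adjusted p = 0.00471). The p53 targets rose in 21 and fell in 1 of 28 (median 0.97), with Cdkn1a at 2.35 (adjusted p = 0.00197), Mdm2 at 1.63 (adjusted p = 0.0014) and Gdf15 at 1.62 (adjusted p = 0.0261).

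Matrix glycoproteins fell in 11 of 32 (median -0.62), collagens in 6 of 22 (median -0.71) and cholesterol genes in 2 of 23 (median -0.22). Igfbp3 fell by 2.75 on the log2 scale (adjusted p = 0.00583) and Col3a1 by 1.55 (adjusted p = 0.0279). Postn, at -0.58 (adjusted p = 0.452), and Idi1, at -0.34 (adjusted p = 0.507), did not pass. The difference between wild mice and the other populations was not tested here.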
